A study of Homo sapiens with 6 samples.

Results

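The genes of cholesterol biosynthesis and of its control by sterol regulatory element-binding proteins (SREBPs) were examined in UM-SCC1, a human cell line from a squamous carcinoma of the head and neck, transfected with miR-204-5p mimics (3 libraries) or control mimics (3 libraries). They were the 31 rows, of 14959 in the deposited gene table, whose gene name stood on a list of enzymes, SREBP regulators and sterol transport genes, and all 31 were found. Mimics are synthetic RNA duplexes that stand in for the mature miRNA, and the control oligo served as the reference. Every library came from the same line, and the series gives 48 h between transfection and measurement. The deposited unit was FPKM, fragments per kilobase of transcript with the number of mapped fragments scaled out.

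Cells make cholesterol from acetyl-CoA. The mevalonate branch builds isoprenoid units and farnesyl diphosphate, and the sterol branch joins farnesyl units into squalene, closes it to lanosterol and trims lanosterol to cholesterol. SREBPs are transcription factors held in the endoplasmic reticulum membrane with their escort SCAP. When membrane sterols are low, SCAP carries the SREBP to the Golgi, the proteases encoded by MBTPS1 and MBTPS2 cut it, and the freed domain switches on the genes of the pathway. When sterols are high, the INSIG proteins retain SCAP in the endoplasmic reticulum. INSIG1 is itself a target of SREBPs. The nuclear receptors LXR-alpha (NR1H3) and LXR-beta (NR1H2) respond to oxysterols and act on sterol disposal.

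The mature miRNA is shown because its seed, bases 2 to 8, in capitals, sets which 3'UTRs it can pair with.
hsa-miR-204-5p: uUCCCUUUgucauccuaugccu

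The pathway did not move in one direction. With miR-204-5p mimics 9 of the 31 genes were higher and 6 were lower by a limma adjusted p-value under 0.05, against 23.9% of all genes higher and 16.8% lower. Without control mimics replicate 1, or without control mimics replicate 2, 8 were higher and 3 were lower. The 15 genes called were 48.4% of the list, where 40.8% of the whole table was called, so the list as a whole stood close to the background. Of the whole table, 3455 genes had a mean below 1 FPKM, and none of the 31 did. In the fit of the 11504 genes with a mean of at least 1 FPKM, 5761 were called, 3328 higher and 2433 lower. The median log2 change was 0.068 for the 31 genes and 0.032 for all genes, and that of the 31 genes was 0.024 with libraries scaled to equal medians and 0.043 with quantile normalization. A log2 change is the difference of mean log2(FPKM + 1), mimics minus control, given with its limma standard error (SE). The FPKM ranges of the groups were separate for 16 of the 31 genes, 51.6%, and for 53.6% of all genes. The changes ran from −0.55 for MVK to 1.29 for INSIG1. Only INSIG1 and MSMO1 of the 31 exceeded 0.8 in size.

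**Figure D1:**
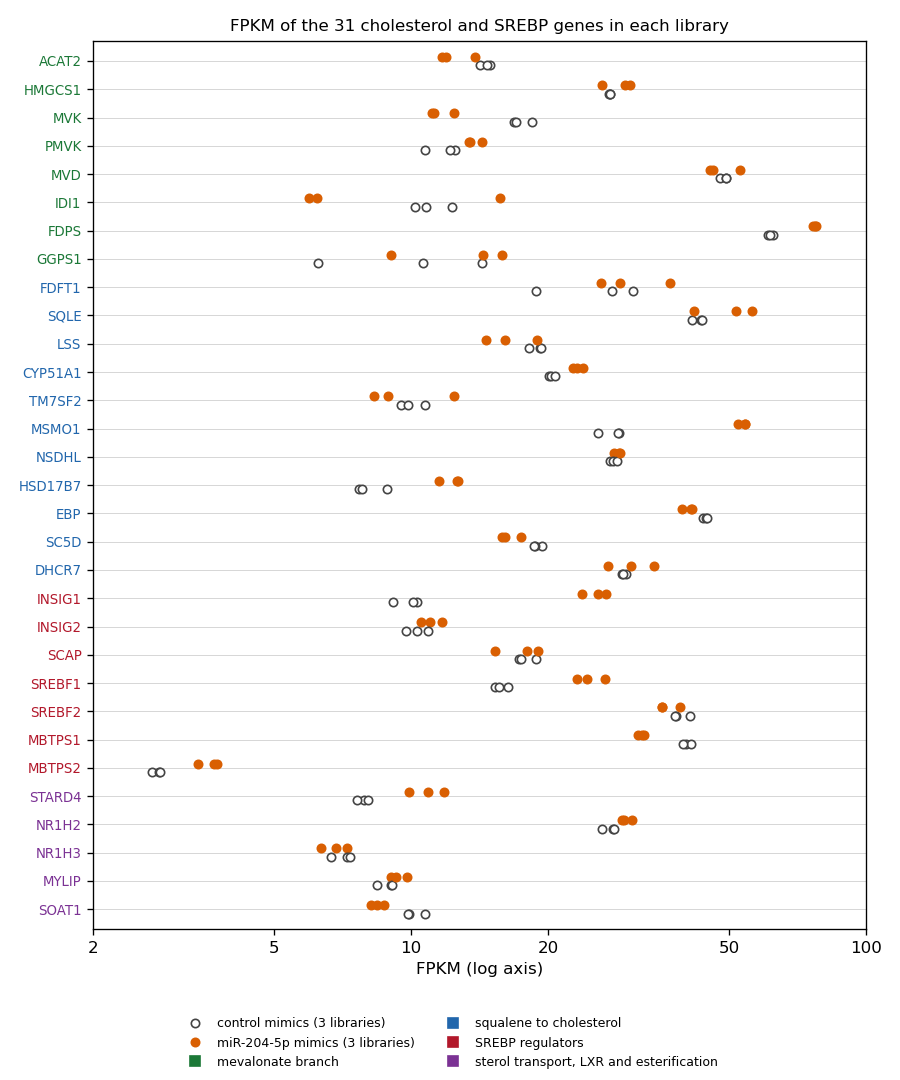
FPKM of each gene (log axis) in the 3 libraries given miR-204-5p mimics (filled) and the 3 with control mimics (open), in pathway order from top to bottom, with gene names coloured by role. INSIG1, MSMO1, SREBF1 and HSD17B7 show separate groups with the mimics to the right, MVK and MBTPS1 with the mimics to the left, and the points of IDI1, GGPS1 and FDFT1 spread within a group.

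The control of the pathway held the largest change. INSIG1 (ENSG00000186480, chromosome 7), the endoplasmic reticulum anchor of SCAP, was listed at 26.8, 23.8 and 25.8 FPKM with miR-204-5p mimics and at 10.3, 9.10 and 10.1 FPKM with control mimics. Every library with mimics lay above every control library, at 2.59 times the control mean. The log2 change was 1.29 (SE 0.0646, adjusted p = 6.74e-05 by limma), which ranked 42 from the highest among 14959 genes. With 1 library left out in turn it stayed between 1.24 and 1.34. INSIG2, its paralog, had 11.7, 11.0 and 10.5 FPKM with mimics and 9.72, 10.3 and 10.9 FPKM with control mimics. These ranges overlapped, and INSIG2 did not pass the threshold (log2 change 0.091, SE 0.0616, adjusted p = 0.289 by limma). The ratio of INSIG1 to INSIG2 FPKM, per length, was 2.16 to 2.46 with mimics and 0.882 to 1.05 with control mimics. The listed INSIG2 transcript has 574 bases and is annotated as a target of nonsense-mediated decay, and it is 22.2% as long as the longest coding form.

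Of the SREBP genes themselves, SREBF1 was higher and SREBF2 did not pass the test. SREBF1, whose products mainly serve fatty acid synthesis, was listed at 23.1, 24.3 and 26.7 FPKM with mimics and at 16.3, 15.3 and 15.6 FPKM with control mimics. The groups were separate, and the log2 change was 0.62 (SE 0.0606, adjusted p = 0.000530 by limma). SREBF2, whose product mainly serves sterol synthesis, had 35.6, 35.6 and 39.0 FPKM with mimics and 41.1, 38.3 and 38.1 FPKM with control mimics. Its groups overlapped (log2 change −0.092, SE 0.0526, adjusted p = 0.212 by limma). The ratio of SREBF1 to SREBF2 FPKM was 0.649 to 0.684 with mimics and 0.397 to 0.409 with control mimics. The transcript listed for SREBF1 has 1230 bases and 5 exons on chromosome 17 (17810399 to 17813769). It is 28.9% as long as the longest coding transcript and is annotated as a target of nonsense-mediated decay. In 45.2% of its length it lies over exons of RAI1 on the opposite strand, and whether the counting used strand is not given in the sources used here. RAI1 moved the other way, with a log2 change of −0.35 (adjusted p = 0.00652 by limma). The share of RAI1 reads in the SREBF1 value was not tested.

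The proteases that release SREBPs moved in opposite directions. MBTPS1, the site-1 protease that makes the first cut, had 31.5, 32.2 and 32.5 FPKM with mimics and 40.2, 41.3 and 39.5 FPKM with control mimics. It fell to 0.794 of the control mean (log2 change −0.32, SE 0.0352, adjusted p = 0.000767 by limma). MBTPS2, the site-2 protease that cuts within the membrane, was the lowest of the 31 genes, at 3.75, 3.68 and 3.40 FPKM with mimics and 2.69, 2.79 and 2.80 FPKM with control mimics. It rose by a log2 change of 0.29 (SE 0.0599, adjusted p = 0.00911 by limma). Neither gene's groups overlapped. The ratio of MBTPS1 to MBTPS2 was 8.40 to 9.55 with mimics and 14.1 to 14.9 with control mimics. SCAP, the escort, had 15.3, 18.0 and 19.0 FPKM with mimics, a range that took in all 3 control values of 17.3, 17.4 and 18.8 FPKM (log2 change −0.039, SE 0.0822, adjusted p = 0.743 by limma). Of the 7 regulators, 3 were higher, 1 was lower and 3 did not pass the test.

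**Figure D2:**
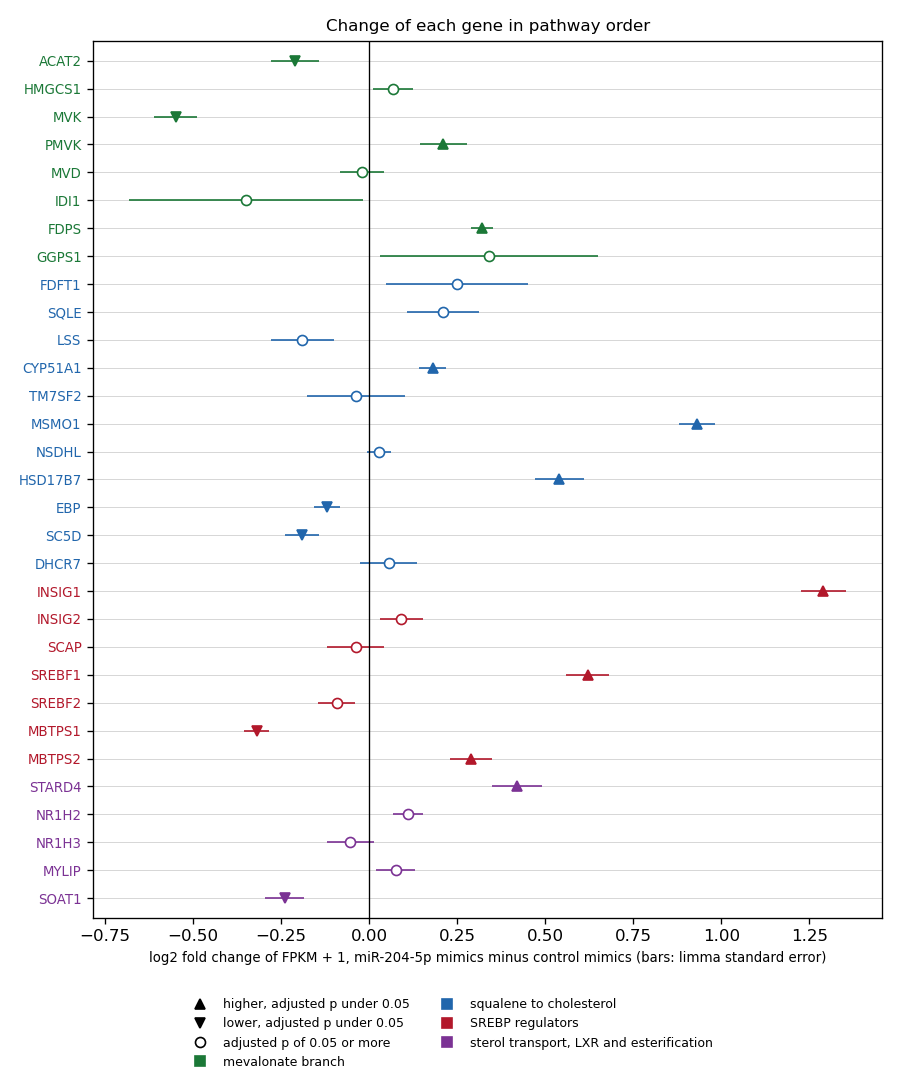
Log2 change of FPKM + 1 with its limma SE for each gene in pathway order. Upward triangles mark genes higher and downward triangles genes lower at an adjusted p under 0.05, and open circles the other genes. INSIG1 (1.29) and MSMO1 (0.93) stand to the right of all others, and each role has genes on both sides of 0.

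Among the 11 enzymes from squalene synthesis to cholesterol, 3 were higher, 2 were lower and 6 did not pass the test. MSMO1, the oxidase that begins the removal of a pair of methyl groups from the sterol ring, had 52.3, 54.1 and 54.2 FPKM with mimics and 28.7, 25.7 and 28.5 FPKM with control mimics. The groups were far apart, at 1.94 times the control mean (log2 change 0.93, SE 0.0513, adjusted p = 8.16e-05 by limma). HSD17B7, the ketoreductase of the same demethylation, had 11.5, 12.6 and 12.7 FPKM against 7.66, 7.81 and 8.85 FPKM. It rose as well (log2 change 0.54, SE 0.0693, adjusted p = 0.00141 by limma). Its listed transcript has 507 bases in 2 exons, 42.6% of the longest coding form. HSD17B7 also has pseudogene copies, and reads shared with them were not tested. NSDHL, the dehydrogenase that acts between them, was listed at 27.9, 28.6 and 28.8 FPKM with mimics and 27.4, 27.8 and 28.3 FPKM with control mimics. Its replicates were among the tightest of the list, and its log2 change was 0.028 (SE 0.0349, adjusted p = 0.561 by limma). CYP51A1, the lanosterol demethylase that acts before these enzymes, had 23.9, 23.1 and 22.7 FPKM against 20.1, 20.3 and 20.7 FPKM, a small rise beyond the spread (log2 change 0.18, SE 0.0380, adjusted p = 0.00998 by limma).

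Later steps of the sterol branch held its lower genes. SC5D, the sterol desaturase, had 17.4, 16.1 and 15.8 FPKM with mimics and 19.4, 18.7 and 18.6 FPKM with control mimics (log2 change −0.19, SE 0.0486, adjusted p = 0.0212 by limma). EBP, the sterol isomerase before it, had 41.5, 41.2 and 39.3 FPKM against 43.7, 44.4 and 44.6 FPKM (log2 change −0.12, SE 0.0361, adjusted p = 0.0381 by limma). Both pairs of groups were separate, yet the SC5D call was lost when any of 4 libraries was left out (highest limma adjusted p 0.0682), and the EBP call when any of 5 was (highest 0.101). DHCR7, the reductase that ends one route to cholesterol, varied from 27.1 to 34.2 FPKM with mimics around control values of 29.1 to 29.6 FPKM (adjusted p = 0.625 by limma). TM7SF2, a sterol reductase, varied from 8.27 to 12.4 FPKM with mimics around 9.48 to 10.7 FPKM and shares 16 bases of exon with VPS51 on the same strand, itself without a call (TM7SF2 adjusted p = 0.858 by limma).

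The enzymes at the head of the sterol branch did not pass the test. Libraries were uneven with mimics for SQLE and LSS, and in both groups for FDFT1. SQLE, the squalene epoxidase and a rate-limiting step, had 51.9, 56.2 and 41.9 FPKM with mimics and 43.4, 41.5 and 43.6 FPKM with control mimics (log2 change 0.21, SE 0.103, adjusted p = 0.156 by limma). Mimics replicate 3 lay within the control range, and without it the log2 change was 0.33 (adjusted p = 0.00686 by limma). LSS, the cyclase that makes lanosterol, had 14.6, 16.1 and 18.9 FPKM against 18.2, 19.2 and 19.3 FPKM (log2 change −0.19, adjusted p = 0.135 by limma). Here too replicate 3 lay within the control range, and without it the values were −0.29 and 0.0166. FDFT1, squalene synthase, ran from 26.1 to 37.0 FPKM with mimics and from 18.8 to 30.8 FPKM with control mimics, a spread larger than the difference between groups (log2 change 0.25, SE 0.201, adjusted p = 0.358 by limma).

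In the mevalonate branch 2 of the 8 genes were higher, 2 were lower and 4 did not pass the test. MVK, mevalonate kinase, had 12.4, 11.2 and 11.1 FPKM with mimics and 18.4, 16.8 and 17.0 FPKM with control mimics. It fell to 0.666 of the control mean (log2 change −0.55, SE 0.0600, adjusted p = 0.000788 by limma). The listed MVK transcript holds 834 bases, 30.4% of the longest coding form, and in 27.0% of its length it lies over exons of MMAB on the opposite strand (MMAB log2 change 0.11, adjusted p = 0.141 by limma). FDPS, farnesyl diphosphate synthase and the highest of the 31 genes, had 76.4, 77.7 and 77.2 FPKM against 62.6, 60.8 and 61.5 FPKM. Its replicates lay close together in both groups, and it rose by a log2 change of 0.32 (SE 0.0309, adjusted p = 0.000492 by limma).

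The other 2 calls of the mevalonate branch were marginal. PMVK, phosphomevalonate kinase, had 13.4, 14.3 and 13.5 FPKM with mimics and 10.7, 12.5 and 12.2 FPKM with control mimics (log2 change 0.21, adjusted p = 0.0484 by limma), a call that no fit with 1 library left out kept (adjusted p 0.0506 to 0.137). ACAT2, the cytosolic thiolase that starts the branch, had 11.9, 13.8 and 11.7 FPKM against 14.2, 14.9 and 14.7 FPKM (log2 change −0.21, adjusted p = 0.0458 by limma), and 1 of the 6 such fits kept its call. In 12.5% of its length the listed ACAT2 transcript lies over exons of TCP1 on the opposite strand, at 56.1 to 69.9 FPKM. Another 34.8% lies over a SOD2 gene model on that strand, at no more than 0.103 FPKM. The share of TCP1 reads in the ACAT2 value was not tested. HMGCS1, the synthase that commits carbon to mevalonate, had 26.3, 30.3 and 29.5 FPKM against 27.4, 27.2 and 27.3 FPKM, and the control values lay inside the range of the mimics (log2 change 0.068, adjusted p = 0.385 by limma). For MVD, the decarboxylase, 45.3 to 52.9 FPKM with mimics enclosed 47.8 to 49.1 FPKM with control mimics (adjusted p = 0.829 by limma).

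IDI1 turned on a single library, and GGPS1 spread widely in both groups. IDI1, the isomerase that makes the reactive isoprene unit, had 15.7, 5.96 and 6.20 FPKM with mimics and 10.2, 10.8 and 12.3 FPKM with control mimics. Mimics replicate 1 was above and the other two below every control library, and the log2 change of −0.35 (SE 0.332, adjusted p = 0.436 by limma) became −0.77 (adjusted p = 0.00308 by limma) without replicate 1. GGPS1, which makes geranylgeranyl diphosphate for protein prenylation, had 15.8, 9.01 and 14.4 FPKM against 14.3, 6.24 and 10.6 FPKM. Its groups overlapped widely (log2 change 0.34, SE 0.309, adjusted p = 0.424 by limma). The value was 0.046 without control mimics replicate 2 and 0.59 without control mimics replicate 1. No fit with 1 library left out gave a call (limma adjusted p 0.182 to 0.908). Of the listed GGPS1 transcript, 39.3% is shared with exons of a TBCE gene model on the same strand. That gene was at 0.881 to 1.31 FPKM with mimics and 1.29 to 2.02 FPKM with control mimics (log2 change −0.40, adjusted p = 0.0492 by limma), and the part of either fact in the spread of GGPS1 was not tested.

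Among the 5 genes of sterol transport, LXR and esterification, 1 was higher, 1 was lower and 3 did not pass the test. STARD4, a soluble sterol carrier and SREBP target, had 11.8, 10.9 and 9.87 FPKM with mimics and 7.86, 8.04 and 7.61 FPKM with control mimics, which were separate (log2 change 0.42, SE 0.0699, adjusted p = 0.00395 by limma). SOAT1, the enzyme that esterifies cholesterol for storage, had 8.14, 8.73 and 8.43 FPKM against 9.89, 9.82 and 10.7 FPKM (log2 change −0.24, SE 0.0552, adjusted p = 0.0140 by limma). NR1H2 was the gene whose groups were separate without a call, at 29 to 30.6 FPKM with mimics and 26.3 to 27.9 FPKM with control mimics (log2 change 0.11, SE 0.0419, adjusted p = 0.0724 by limma). NR1H3 overlapped between groups at 6.32 to 7.21 and 6.67 to 7.35 FPKM (adjusted p = 0.555 by limma). MYLIP, an LXR target whose product marks lipoprotein receptors for degradation, also overlapped at 9.04 to 9.79 and 8.40 to 9.07 FPKM (adjusted p = 0.321 by limma).

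Of the 15 calls, 11 held under all 12 alternative settings: INSIG1, MSMO1, SREBF1, HSD17B7, STARD4, FDPS, MBTPS2 and CYP51A1 higher, and MVK, MBTPS1 and SOAT1 lower. The 4 others were ACAT2, PMVK, EBP and SC5D. Some of the 11 came near the threshold, with a highest limma adjusted p of 0.0488 for CYP51A1, 0.0437 for SOAT1 and 0.0384 for MBTPS2. All settings drew on the same libraries. The summed FPKM of the 31 genes was 751, 733 and 742 with mimics and 669, 666 and 686 with control mimics. Of the difference of 68.3 FPKM between group means, 57.0 came from MSMO1, INSIG1 and FDPS, and the other 28 genes together added 11.3. In bulk RNA a change of RNA per cell and a change in the share of cells cannot be told apart.

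**Figure D3:**
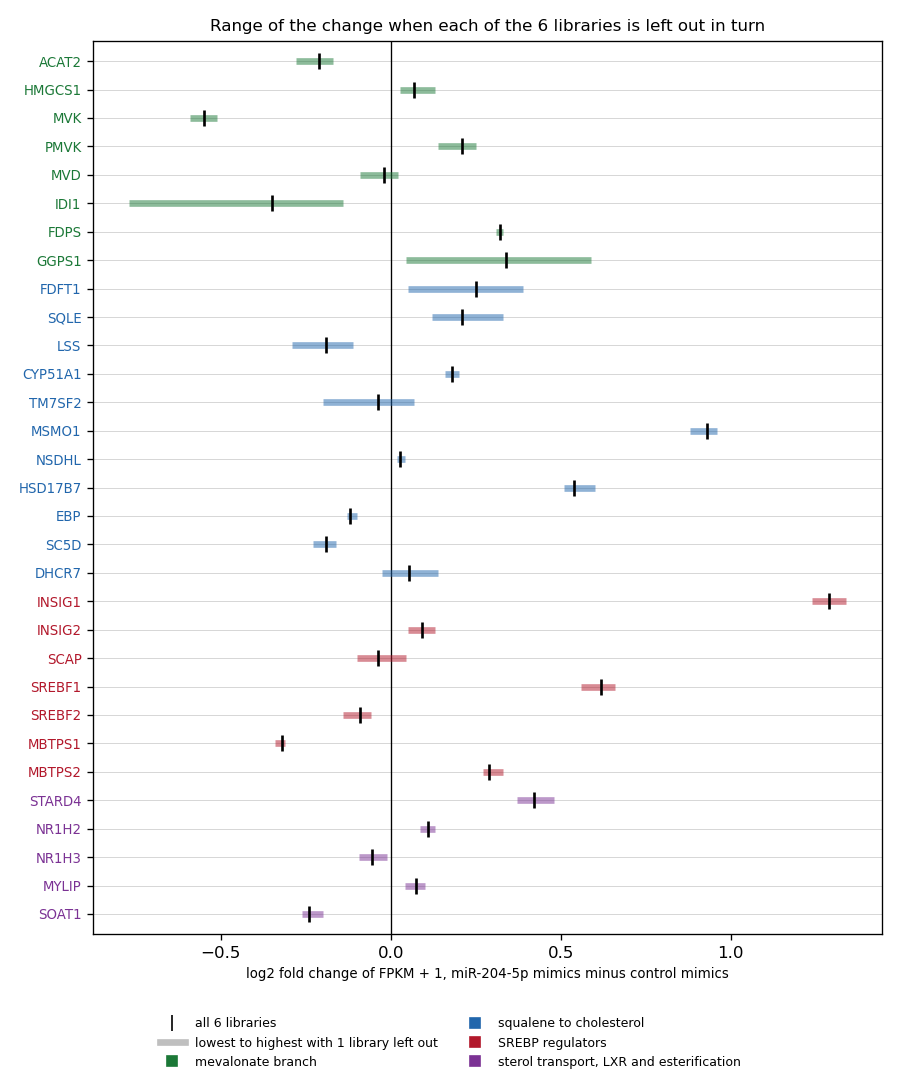
Log2 change of each gene with all 6 libraries (tick) and its range over the 6 fits that leave out 1 library (bar). The bars of the 11 calls held under all settings stay on one side of 0 and are short, while those of IDI1 (−0.77 to −0.14) and GGPS1 (0.046 to 0.59) are long.

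Matches to the miR-204-5p seed were sought in 1 3'UTR per gene, the longest that GENCODE 29 holds. A match of at least 7 bases was found for 7 of the 31 genes, 22.6%, and for 27.1% of the 14649 genes searched. Of these 7 genes, 2 were lower, 1 was higher and 4 did not pass the test. Of the 24 genes without a match, 4 were lower, 8 were higher and 12 did not pass the test. Among all genes of the table, 16.8% were lower and 23.9% higher. None of INSIG1, MSMO1, SREBF1, HSD17B7, STARD4, FDPS, CYP51A1 and MVK held a match in that 3'UTR. The sites of the 3 genes that were called are shown with the match in capitals, written along the transcript.
MBTPS1: ggctggtttaAAAGGGAtccagtttcc
SOAT1: aaatacactcAAGGGAAgttattttta
MBTPS2: tataattgaaAAAGGGAAtataagtaat

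The MBTPS1 match, a 7mer-m8 (complementary to bases 2 to 8), lies in exon 23 of 23 in the listed transcript, at chr16:84054355-84054361 on the minus strand of GRCh38. MBTPS1 was lower with mimics. The SOAT1 match, a 7mer-A1 (bases 2 to 7 and an A), lies in exon 16 of 16 of ENST00000367619 at chr1:179355151-179355157 on the plus strand, a position that the listed transcript, another form with 15 exons, also covers, and SOAT1 was lower too. The MBTPS2 match is an 8mer, the longest class, at chrX:21870358-21870365 on the plus strand, in the last of 7 exons of a form that the deposited table does not list. The site is not in the listed MBTPS2 transcript, and MBTPS2 was higher with mimics. The other 4 genes, DHCR7, HMGCS1, IDI1 and MYLIP, each held a 7mer-A1. The sites of HMGCS1 and IDI1 are in the listed transcript, and those of DHCR7 and MYLIP are not.

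Promoters are shown for INSIG1 and MSMO1, which rose most, and for SREBF2, the only one with the sterol regulatory element core searched here. The 250 bases before the RefSeq start (GRCh38.p14) are printed in the direction of transcription. Capitals mark CCAAT, or its reverse complement ATTGG, the letters bound by the SREBP partner NF-Y, and the core TCACNCCAC.
INSIG1: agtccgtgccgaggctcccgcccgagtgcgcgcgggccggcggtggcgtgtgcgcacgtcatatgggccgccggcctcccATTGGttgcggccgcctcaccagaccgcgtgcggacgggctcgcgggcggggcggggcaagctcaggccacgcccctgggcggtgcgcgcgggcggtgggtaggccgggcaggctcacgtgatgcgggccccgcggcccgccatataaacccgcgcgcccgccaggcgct
MSMO1: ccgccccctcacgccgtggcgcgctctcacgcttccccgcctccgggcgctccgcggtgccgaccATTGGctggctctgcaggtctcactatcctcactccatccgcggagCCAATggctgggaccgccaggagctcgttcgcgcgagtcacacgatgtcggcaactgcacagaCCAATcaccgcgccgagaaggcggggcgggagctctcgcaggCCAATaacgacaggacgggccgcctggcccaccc
SREBF2: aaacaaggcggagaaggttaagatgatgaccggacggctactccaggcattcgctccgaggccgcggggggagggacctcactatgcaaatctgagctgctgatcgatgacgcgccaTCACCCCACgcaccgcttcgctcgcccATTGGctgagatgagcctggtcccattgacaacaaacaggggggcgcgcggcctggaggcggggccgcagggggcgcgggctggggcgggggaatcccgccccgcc

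These windows lie at chr7:155297628-155297877, chr4:165327419-165327668 and chr22:41832855-41833104, all on the plus strand. The promoter of MSMO1 held 4 CCAAT matches, from 185 to 34 bases before the start, that of INSIG1 held 1 at 170 bases and that of SREBF2 held 1 at 106 bases. The core TCACNCCAC, sought on both strands, was found in SREBF2 at 133 bases and in 0.883% of all 35116 promoters. Of the 28 genes of the list with a RefSeq promoter, 39 windows in all, 22 windows held CCAAT (56.4%), against 32.0% of all promoters. An excess was not particular to CCAAT. The GC box GGGCGG was in 82.1% of the windows against 42.6% of all promoters. The E-box CACGTG was in only 4 windows of 3 genes, 10.3% against 6.34%. Windows of a gene can overlap, and the overlapping windows of SC5D held the same E-box. All promoters were those of RefSeq, not only of genes in the deposited table. At least 1 window with CCAAT was found for 5 of 9 genes that were higher, 4 of 5 that were lower and 11 of 14 that did not pass the test. A match of letters is a description of the window only.

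Other genes of the pathway were counted in the same fit, on lists drawn up by function but with earlier results of these data known. Of 15 factors of SREBP processing and turnover, 5 were higher (33.3%) and 2 were lower (13.3%), where 23.9% and 16.8% of all genes were. PAQR3, a Golgi protein that tethers SCAP and SREBP there, rose from 1.74 ± 0.311 to 4.61 ± 0.456 FPKM (n = 3, SD, with a log2 change of 1.04, adjusted p = 0.000595 by limma). ERLIN1, a cholesterol-binding protein of the endoplasmic reticulum that restrains SREBP release, rose from 8.23 ± 0.451 to 15.8 ± 0.160 FPKM (n = 3, SD, with a log2 change of 0.86, adjusted p = 9.72e-05 by limma). The median log2 change of the list was −0.015.

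Of 14 genes of the isoprenoid branch, which draws on farnesyl diphosphate, 6 were higher (42.9%) and 3 were lower (21.4%), with a median of 0.15. NUS1, a subunit of the enzyme that makes dolichol precursors, rose from 8.27 ± 0.544 to 15.6 ± 0.133 FPKM (n = 3, SD, with a log2 change of 0.84, adjusted p = 0.000137 by limma). PDSS1, which makes the side chain of coenzyme Q, rose from 1.66 ± 0.376 to 3.05 ± 0.431 FPKM (n = 3, SD, with a log2 change of 0.61, adjusted p = 0.00921 by limma). Of 18 genes of intracellular sterol handling, 9 were higher (50%) and 3 were lower (16.7%), with a median of 0.23. OSBPL11, of the oxysterol-binding protein family, rose from 4.62 ± 0.612 to 8.52 ± 0.356 FPKM (n = 3, SD, with a log2 change of 0.76, adjusted p = 0.000909 by limma). NCEH1, a hydrolase of cholesterol esters, fell from 16.0 ± 0.0752 to 8.64 ± 0.492 FPKM (n = 3, SD, with a log2 change of −0.82, adjusted p = 0.000117 by limma).

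Of 15 SREBP targets in fatty acid and phospholipid synthesis, 6 were higher (40%) and 2 were lower (13.3%), with a median of 0.12. FADS1, a fatty acid desaturase, rose from 12.1 ± 0.152 to 18.4 ± 1.05 FPKM (n = 3, SD, with a log2 change of 0.56, adjusted p = 0.000407 by limma). ELOVL6, an elongase of long-chain fatty acids, fell from 9.73 ± 0.285 to 5.51 ± 0.145 FPKM (n = 3, SD, with a log2 change of −0.72, adjusted p = 0.000163 by limma). The share higher was above that of all genes in each of the 4 lists, and each list also held lower genes. All genes included 3455 with a mean below 1 FPKM, and of the 4 lists only sterol handling held such a gene. Of the 11504 genes with a mean of at least 1 FPKM, 3328 were higher and 2433 lower in their own fit, so the backgrounds differ.

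**Figure D4:**
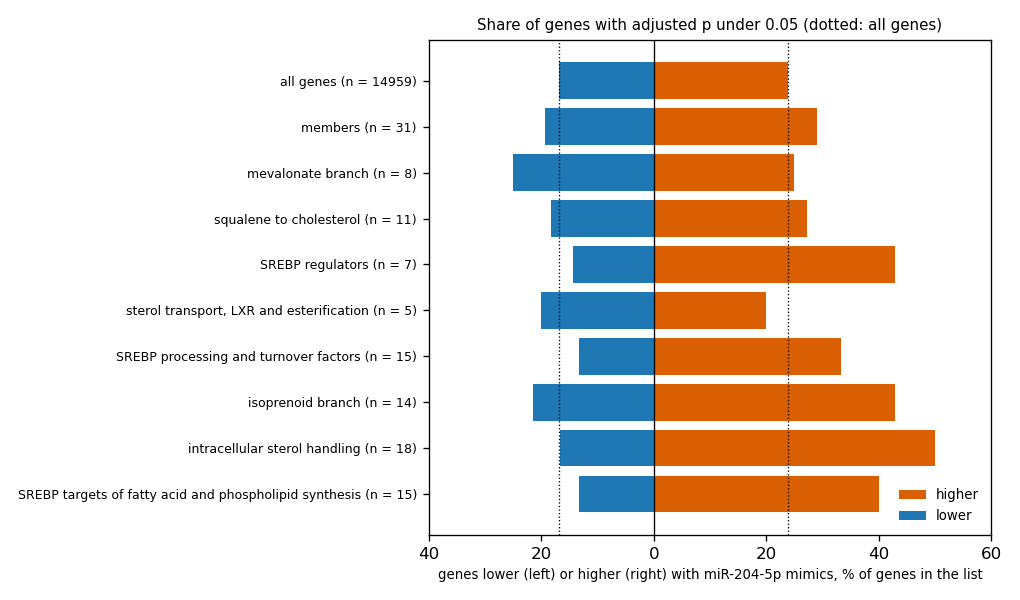
Percent of the genes of each list lower (left) or higher (right) with miR-204-5p mimics at an adjusted p under 0.05, with the number of genes in brackets. Dotted lines mark the shares of all 14959 genes (16.8% lower and 23.9% higher), and the 31 genes (19.4% and 29%) lie nearer to the line for higher genes than intracellular sterol handling (50%) and the isoprenoid branch (42.9%).

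The table gives no read numbers. In genes with 1 annotated transcript, 41.5% to 55.9% of low values were whole multiples (within 0.05) of a step of 0.0305 to 0.0382 FPKM on 1 kb, against 8.61% to 9.09% at the median of the steps tried. The next best step took in 32.9% to 46.4%, the last close to the best in mimics replicate 1, so the step is an estimate, and whether a step is a read or a read pair was not settled. On that scale, taking the length of the listed transcript, the value of each of the 31 genes came to at least 109 steps, the fewest for HSD17B7. Squamous epithelial markers were present (8 of 8, mean 2.07 to 257 FPKM). Of 10 leukocyte, endothelial and fibroblast markers in the table, 8 had a mean below 1 FPKM, and CD14 (14.3) and COL1A1 (8.91) did not. The summed squamous markers were lower with mimics, at 588 to 684 against 791 to 814 FPKM, but the markers did not move together. Of the 8, 5 were lower, CDH1 (log2 change 0.39) and KRT6A (0.81) were higher, and KRT17 did not pass the test. The part of these markers in the results above was not tested.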

How the data were processed

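Libraries of 2 groups, miR-204-5p and control mimics, 3 each, were compared. The authors deposited FPKM values for 14959 genes. Per the labels, HISAT2, StringTie and hg38 were used, with no roles or versions, and the methods name edgeR, as run by the authors, for their comparison. The deposited log2 ratios and p-values of the authors' comparison were not used. Each gene is listed with 1 transcript. An FPKM value depends on the length used, and whether a gene's value covers the listed transcript alone was not tested. All 31 listed transcripts have the same start and end in GENCODE 29.

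Because FPKM are no counts, limma (version 3.58.1, R version 4.3.3) was fitted to log2(FPKM + 1) over every gene, with a variance trend and no filter. Tests were two-sided, with Benjamini-Hochberg adjustment over all genes at 0.05. The fit was tested on simulated data. Nothing says how separate the replicate cultures were beyond the series calling them independent experiments, so p-values measure the spread between these libraries. With 3 libraries against 3, an exact permutation test cannot go below 0.1. Python 3.11.15, pandas 2.3.3 and numpy 2.4.6 did the rest.

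The 31 genes and the other lists were chosen with earlier results of these data known. All 31 could be named, and from each other list the 2 largest called changes with a mean of at least 1 FPKM. RAI1, MMAB, TCP1 and SOD2 were named after their values had been seen. Promoters and the miRNA come from RefSeq (GRCh38.p14). Promoters of 28 of the 31 genes were matched.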

Additional observations from a re-analysis of the deposited data

How the results depend on the processing

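The alternatives were 0.1 as pseudocount, a filter at a mean of 1 FPKM, equal medians, quantile normalization, no variance trend, the replicate number as a block, and each of the 6 libraries left out. Over 372 values of the 31 genes, 333 kept their direction and side of the threshold, 27 lost a call, 4 gained one and 8 changed sign. The number called among the 31 genes, 15, was 11 to 14 with 1 library left out, 14 with equal medians or quantile normalization and 13 without the trend. The 4 calls of the mevalonate branch became 2 without any one of control mimics replicates 1, 2 and 3 or mimics replicate 3, and ranged from 2 to 3 over the 6 libraries left out. The 5 calls of the sterol branch became 3 without control mimics replicate 1, control mimics replicate 2 or mimics replicate 2, and ranged from 3 to 5. Of the 31 genes, 9 higher and 6 lower became 8 and 3 without control mimics replicate 1 or replicate 2, and the lower genes were 4 without control mimics replicate 3, mimics replicate 2 or mimics replicate 3. The 2 lower SREBP processing factors were 4 with equal medians, and the 2 lower fatty acid targets were 1 with the replicate block or without any one of the 6 libraries. Sterol handling, with 9 higher, had 6 with equal medians, with the block and without mimics replicate 2, and the isoprenoid branch, with 6 higher, had 4 without control mimics replicate 1, control mimics replicate 3 or mimics replicate 1.

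The sign changes were all of genes without a call. With 1 library left out, MVD ran from −0.09 to 0.020, TM7SF2 from −0.20 to 0.067, DHCR7 from −0.026 to 0.14 and SCAP from −0.10 to 0.046. NSDHL was −0.015 with equal medians. Without mimics replicate 1, MVD was 0.020 and SCAP 0.046. Without mimics replicate 2, MVD was 0.0093 and TM7SF2 0.067. Without mimics replicate 3, TM7SF2 was 0.021 and DHCR7 −0.026, and without control mimics replicate 3 TM7SF2 was 0.0067.

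The replicate numbers did not pair the libraries (correlations of deviations −0.108 to −0.0210 for equal numbers). With the replicate block 13 of the 31 genes were called, 9 higher and 4 lower, and 5096 of all genes. GGPS1 was called with the block (log2 change 0.34, limma adjusted p = 0.0408). Equal medians moved the median log2 change of all genes by −0.024. The share higher among all calls, 58.7%, was 51.3% with equal medians and 50.1% with quantile normalization.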
